A study of Bos grunniens with 6 samples.

Results

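The genes described here carry a symbol made of ZNF and a number, with or without a letter after it, in the m6A peak list of cattle-yak testis, with ZNF773 left out. They were found by symbol alone, with no use of a peak position or expression value. The rule gave 180 symbols on 236 Ensembl gene identifiers with 498 peaks, of 7802 symbols, 8986 identifiers and 16186 peaks in the whole list. The cattle-yak is the hybrid of domestic cattle and yak, and its males are sterile. The study sampled the testes of 3 such animals, named TES5, TES6 and TES7 and each aged 5 years, and made from every one an immunoprecipitated (IP) and an input library, so that 6 libraries stood for 1 condition with no treatment and no control group. MeRIP-seq enriches fragments that bind an antibody against N6-methyladenosine (m6A) and calls peaks where the IP exceeds the input RNA.

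ZNF symbols name zinc finger proteins, most of which hold a row of C2H2 fingers, short loops folded around a zinc ion that read DNA bases. A large part of them carry a KRAB domain, which binds TRIM28 and brings silencing chromatin to the DNA that the fingers find, much of it transposable elements. In such genes the exon encoding the finger array is typically the last one, and it is long. The genes lie in clusters that grew by duplication. m6A is the most common internal mark of messenger RNA, set by METTL3 and METTL14, read by YTH proteins, and found mostly in long exons and around stop codons. Both fields meet in the germ line, where m6A is needed for germ cell development and KRAB zinc fingers hold back retroelements.

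The label was checked against the annotation terms that the authors listed for each identifier. A DNA binding, nucleic acid binding, transcription, zinc ion or metal ion term, or the KEGG map ko05168 in which KRAB zinc fingers are collected, was listed for 212 of the 236 identifiers (89.8%), against 41.9% of all 8986 identifiers with a peak. The other 24 identifiers had none of these. An identifier with the symbol ZNF384 (ENSBGRG00000000548) carried histone acetyltransferase complex terms, so its symbol is uncertain. More than 1 identifier shared a symbol for 43 of the 180 symbols, and these held 99 of the 236 identifiers, 41.9% against 19.4% of all identifiers. All identifiers of a symbol lay on 1 chromosome within 1 Mb for 42 of these 43 symbols. Neighbouring copies and split gene models cannot be told apart from the list, and since only uniquely aligned reads were kept, values of near-identical copies are uncertain. RefSeq listed 255 protein-coding ZNF symbols for the yak in another assembly (Bosgru_T2T1.0), of which 165 had a peak here.

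The peak list is 1 set for the 3 animals together, without a score or a value per animal. No test of a difference could therefore be made over animals, and shares are given with a 95% interval (Wilson), which covers counting error only, since peaks of a gene and genes of a cluster are not independent. The processed files hold no read numbers, and the sequencing depth that the study states was not analysed here. Expression is given as FPKM, fragments scaled by transcript length and library size, in the 3 input libraries. Of the testis markers looked up, STAR of Leydig cells stood at 107 FPKM ± 5.95 (SD, n = 3), SOX9 of Sertoli cells at 27.5 ± 0.807, SYCP3 of spermatocytes at 20.7 ± 3.30 and ZBTB16 of undifferentiated spermatogonia at 8.85 ± 2.29. Markers of a type did not all stand alike. WT1 of Sertoli cells had a mean of 29.6 FPKM, and the spermatogonial markers KIT and GFRA1 had 10.02 and 0.790. Of the spermatocyte markers, SYCP1 had 5.44 and the SYCP2 identifiers had from 0 to 5.71. The 4 spermatid markers could not be matched to an identifier, because symbols are paired with identifiers only in the peak list. In bulk tissue, fewer cells of a type and less RNA per cell cannot be told apart.

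Peaks of ZNF genes were placed in exons, and in the last exon, more often than peaks of other genes, and less often in the 3' UTR class, though most of their exon peaks (226 of 400) lay in exons other than the last. The authors' annotation gave each peak 1 class, exon, 3' UTR or 5' UTR. The exon class took 400 of the 498 ZNF peaks (80.3%, 95% interval 76.6% to 83.6%) and 70.0% of the 15688 other peaks (69.3% to 70.7%). The 3' UTR class took 63 ZNF peaks (12.7%, 10.01% to 15.9%) against 21.1% of the others (20.5% to 21.7%), and the 5' UTR class 35 (7.03%, 5.10% to 9.62%) against 8.87%. Intervals of ZNF and other peaks were apart for the exon and 3' UTR classes and overlapped for the 5' UTR class.

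For exon class peaks the list names the exon and how many exons the transcript has. The last exon held 174 of the 400 ZNF peaks of this class (43.5%, 38.7% to 48.4%), against 1901 of 10986 other peaks (17.3%, 16.6% to 18.0%). Gene structure differed too, as the transcripts of ZNF exon peaks had a median of 5 exons and those of the others 12. Weighting the other peaks to the exon numbers of the ZNF peaks raised their last exon share to 27.7%, still below 43.5%. The last exon and the 3' UTR class together took 47.6% of ZNF peaks (43.2% to 52.0%) and 33.2% of other peaks (32.5% to 34.0%). These labels do not measure position, since a last exon can be long or the only exon. Position along the listed transcript span, introns included, differed less. It was taken for peaks that overlapped the listed transcript without containing it whole, 480 ZNF peaks and 15367 others. The peak midpoint had a median of 79.2% of the span (quartiles 43.5% and 94.6%) for these ZNF peaks. For the other peaks it was 73.8% (36.0% and 94.4%). At the level of genes, 156 of 236 ZNF identifiers (66.1%, 59.8% to 71.8%) had at least 1 peak in the last exon or the 3' UTR class, against 48.4% of the others.

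**Figure D1:**
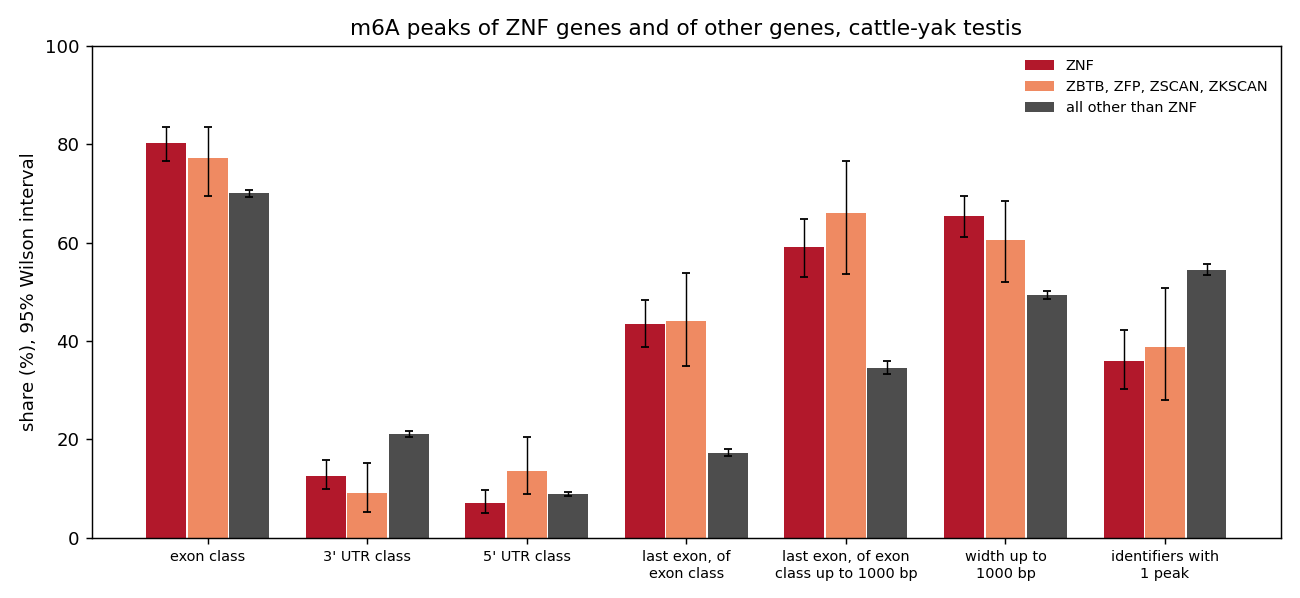
Bars give the share in percent of peaks or identifiers (y axis) for ZNF genes, for the like-built ZBTB, ZFP, ZSCAN and ZKSCAN genes and for all genes other than ZNF, with 95% Wilson intervals as error bars. ZNF peaks stood at 43.5% in the last exon against 17.3% of all others, and at 12.7% in the 3' UTR class against 21.1%.

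Peak width bore on the exon call. A listed width is the span on the genome from the first to the last base, introns included, so a wide peak covers several exons and is named after only 1 of them. ZNF peaks had a median width of 597.5 bp (quartiles 251 and 1693 bp) against 1054 bp (299 and 5035 bp) for the others. At most 1000 bp wide were 65.5% of ZNF peaks (61.2% to 69.5%) and 49.3% of the others (48.5% to 50.1%), and over 10000 bp wide were 6.83% and 14.7%. The listed transcripts of ZNF identifiers were shorter too, with a median span of 10744 bp against 28670 bp, by the first transcript listed (13 ZNF identifiers had peaks on more than 1 transcript span). Among peaks of at most 1000 bp, where the exon is better defined, the last exon share was 59.0% (53.0% to 64.8%) for ZNF genes and 34.6% (33.2% to 35.9%) for the others, or 42.4% when the others were weighted to the ZNF exon numbers. The same order was seen among wider peaks, at 12.7% (8.07% to 19.4%) against 3.28% (2.86% to 3.76%).

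By exon number, the narrow peaks of ZNF genes differed most clearly in transcripts of 2 to 5 exons. With 2 exons, 81.0% of narrow ZNF peaks (66.7% to 90.02%) lay in the last exon against 61.6% of the others (57.6% to 65.5%). In transcripts of 3 exons, 23 of 30 narrow ZNF peaks (76.7%, 59.1% to 88.2%) lay in the last exon against 45.3% of the others (40.04% to 50.7%). With 4 exons the shares were 76.2% (61.5% to 86.5%) and 35.5% (30.7% to 40.6%), and with 5 exons 56.7% (39.2% to 72.6%) and 32.7% (27.4% to 38.5%). For narrow peaks the intervals of ZNF and other genes overlapped from 6 exons on, with 30.0% against 33.1% at 6 exons, 36.2% against 30.0% at 7 to 9, and 23.1% against 15.5% at 10 or more. Over all widths the intervals were apart at 7 to 9 exons as well, with 27.8% (18.8% to 39.0%) against 15.03% (13.2% to 17.1%).

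**Figure D2:**
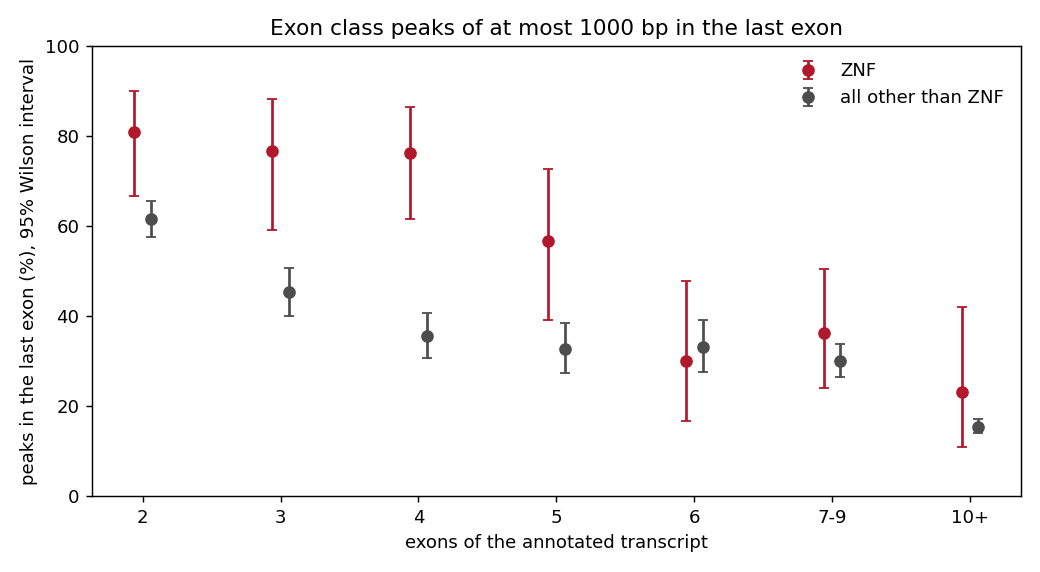
Points give the percent of narrow exon class peaks (at most 1000 bp) that fell in the last exon (y axis, with 95% Wilson intervals) by the number of exons of the annotated transcript (x axis). At 2, 3, 4 and 5 exons ZNF peaks were above all others with intervals apart, and the intervals of these narrow peaks overlapped from 6 exons on.

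The ZBTB, ZFP, ZSCAN and ZKSCAN genes are also C2H2 zinc finger families, and they were close to the ZNF genes in most of these measures. Their 58 symbols on 67 identifiers held 132 peaks, of which 77.3% (69.4% to 83.6%) were of the exon class and 9.09% (5.28% to 15.2%) of the 3' UTR class. Their last exon share was 44.1% (34.9% to 53.8%), beside 43.5% for ZNF, and 60.6% of their peaks were at most 1000 bp wide, beside 65.5%. The 5' UTR class was larger in these families, at 13.6% (8.80% to 20.5%) against 7.03% (5.10% to 9.62%), with overlapping intervals. In transcripts of at least 3 exons their last exon share of 24.6% (15.8% to 36.3%) was below the 35.8% (30.8% to 41.1%) of ZNF genes, again with overlapping intervals. Among peaks of at most 1000 bp in such transcripts the shares were nearly equal, at 50.0% (33.2% to 66.8%) and 50.7% (43.9% to 57.5%). Over all exon class peaks of that width, their last exon share was 66.1% (53.7% to 76.7%), beside 59.0% (53.0% to 64.8%) for ZNF genes.

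ZNF identifiers carried more listed peaks each than other genes. A single peak was listed for 85 of 236 (36.0%, 30.2% to 42.3%) against 54.5% of the other 8750 identifiers (53.5% to 55.6%). There were 2 peaks on 84 identifiers (35.6%), 3 on 45 (19.1%), and 4 or more on 22 (9.32%, 6.24% to 13.7%, against 7.89%). The peaks often shared a named exon, counted at all widths, with a wide peak taken by the exon it is named after. An interval of ZNF132 was listed more than once and is counted as listed. An exon class peak on their own gene or on a transcript without an identifier was listed for 208 ZNF identifiers. Of these, 65 (31.2%, 25.3% to 37.8%) had at least 2 peaks in 1 exon, against 9.27% (8.59% to 9.997%) of the others. At least 2 in the last exon were listed for 41 (19.7%, 14.9% to 25.6%), against 3.75% (3.32% to 4.24%). Of the 67 ZBTB, ZFP, ZSCAN and ZKSCAN identifiers, 26 (38.8%, 28.05% to 50.8%) had a single peak. Among the 56 of them with such an exon class peak, 13 (23.2%, 14.1% to 35.8%) had at least 2 in 1 exon. For 9 (16.1%, 8.69% to 27.8%) at least 2 lay in the last exon. These intervals overlapped those of ZNF identifiers, so the pattern was not particular to ZNF genes.

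Neighbouring peaks in an exon were close together. The 92 such gaps in ZNF exons had a median of 171 bp (quartiles 98 and 343 bp), and 36 of them (39.1%, 29.8% to 49.3%) were at most 100 bp, against 36.8% of 875 gaps in other genes. The list does not say whether such neighbours are parts of 1 longer stretch. Joining peaks with gaps of at most 100 bp left 439 ZNF peaks and raised the share of identifiers with 1 peak to 44.1%, against 57.4% for the others treated likewise. The number of peaks per ZNF identifier hardly moved with expression, with a Spearman rho of 0.02 across 236 identifiers, and went up with the span of the listed transcript, with a rho of 0.37. Both are descriptions across genes, which share clusters and libraries.

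Counted by identifier, ZNF407 had the most peaks, followed by ZNF462, ZNF292 and an identifier of ZNF444 with equal numbers. Variants of the first 3 genes are linked to neurodevelopmental disorders, and each of these had at least 3 peaks in 1 exon. ZNF407 (ENSBGRG00000022510, chromosome 21, 9390222 to 9816832, plus strand, LU_Bosgru_v3.0) had 8 peaks. Of these, 5 lay in exon 2 of 9 between 9418670 and 9422219, a stretch of 3550 bp, with widths from 251 to 1500 bp. Exon 3 was named for the widest peak of the family, 205679 bp from 9428565 to 9634243, introns included, and the remaining peaks were a 5' UTR class peak and 1 in exon 9.

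ZNF292 (ENSBGRG00000021935, chromosome 10, 26488105 to 26589198) showed the pattern in its clearest form. All 7 of its peaks lay in exon 8 of 8, between 26582283 and 26589148, where they summed to 5529 bp of a stretch of 6866 bp. Merging close peaks left 4. ZNF462 (ENSBGRG00000001958, chromosome 7) also had 7 peaks, with 3 in exon 1 of 12, 1 in exon 2, a 42571 bp peak named after exon 8 and 2 in the 3' UTR class, so none of them was a last exon peak.

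**Figure D3:**
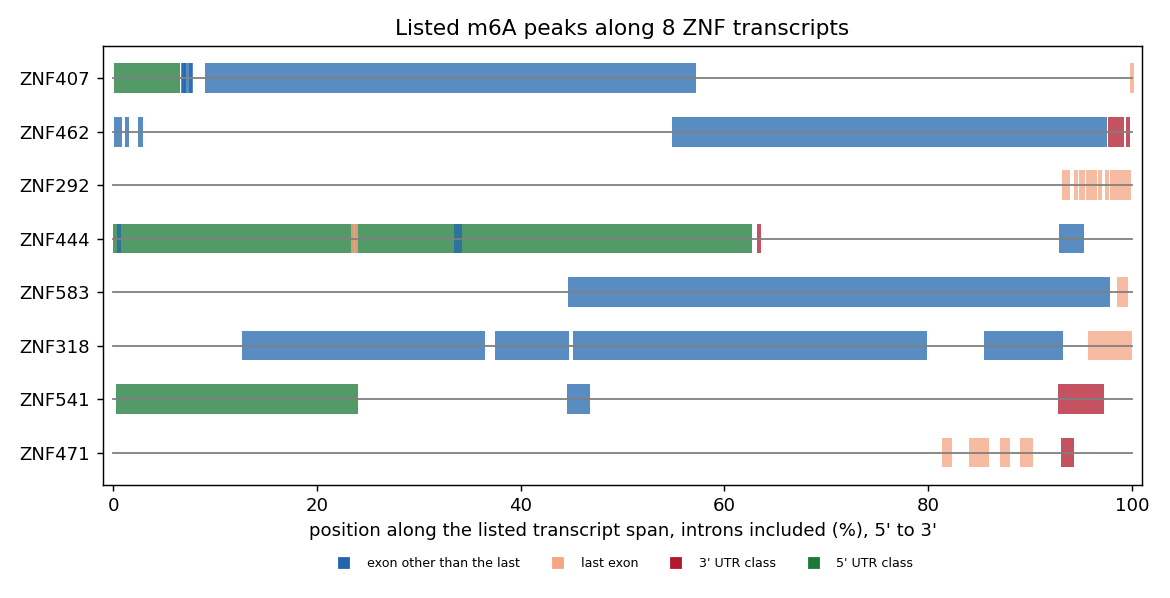
Each line is the listed transcript span of a ZNF gene from its 5' to its 3' end in percent (x axis, introns included), and each block is a listed peak coloured by class, drawn at least 0.4% wide and clipped to the span, with blocks overlapping where peaks do. Peaks wholly outside the span, such as 4 of ZNF583, are not drawn. The 7 peaks of ZNF292 and the 4 exon peaks of ZNF471 lay in the last exon, and 1 peak of ZNF407 spanned 205679 bp.

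The remaining genes with the most peaks showed the limits of the annotation. ZNF444, a SCAN-domain protein, had 7 peaks on 1 of its 3 identifiers (ENSBGRG00000021429, chromosome 20), of which 2 lay in exons of other identifiers and 1 was an 82924 bp peak of the 5' UTR class. This identifier had a mean of only 0.501 FPKM. ZNF583 (ENSBGRG00000022046, chromosome 20) had 6 peaks, of which 4 lay just outside its listed transcript, in exon 2 of a 2-exon transcript without a gene identifier, between 53248786 and 53251558. Over all ZNF genes, 7 of 400 exon class peaks (1.75%) were named after an exon of another identifier and 17 (4.25%) after a transcript without one, against 2.80% and 1.98% of other exon class peaks. ZNF470 was the symbol on the most identifiers, 6 on chromosome 20 with 14 peaks between them, and of the 9 symbols on 3 identifiers, ZNF444 (10 peaks) and ZNF180 (8 peaks) had the most peaks.

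At least 3 peaks in 1 exon were listed for 16 exons of ZNF genes, and 8 of these were last exons. Wide peaks count here by the exon they are named after. The peaks of ZNF423 and ZNF800 ran over 127761 and 32736 bp, so the label does not place all of them within 1 exon. ZNF471 (ENSBGRG00000022177, chromosome 20) was a compact case outside the naming rule, chosen after its values were seen, with 4 peaks of 150 to 299 bp in exon 5 of 5 between 53332285 and 53333625 and another of the 3' UTR class. Exactly 2 peaks were listed for 52 ZNF exons, of which 33 were last exons. The narrowest peak of the family, 146 bp, was in the last of 4 exons of ZNF793, with a second of 340 bp beside it.

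Among ZNF genes, those with the KRAB-linked KEGG map had more of their peaks in the last exon. The map was listed for 81 of 236 ZNF identifiers (34.3%), against 7.37% of all identifiers with a peak. It also stood on genes that are no zinc fingers and was missing from KRAB genes such as ZNF18, so it divides the family only roughly. Identifiers with the map had 87.8% of 164 peaks in the exon class (81.9% to 92.0%), those without it 76.6% of 334 (71.8% to 80.9%). Last exon shares were 52.8% (44.7% to 60.8%) with the map and 38.3% (32.5% to 44.4%) without it. In narrow peaks of transcripts with at least 3 exons, the shares were 66.7% (56.2% to 75.7%) and 39.0% (30.7% to 48.0%). The 5' UTR class held 3 of 164 peaks with the map (1.83%, 0.624% to 5.24%) and 32 of 334 without it (9.58%, 6.87% to 13.2%). Identifiers with the map were also lower in expression, with a median of 3.52 FPKM (the median over identifiers of the mean of 3 animals) against 6.17.

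A large part of the family sat on chromosome 20. It held 79 of the 236 ZNF identifiers (33.5%, 27.8% to 39.7%), against 5.94% of all identifiers with a peak, and chromosome 26 held a further 23 (9.75% against 3.62%). Of all 534 chromosome 20 identifiers with a peak, 14.8% were ZNF. The X chromosome held 6 ZNF identifiers (2.54%, 1.17% to 5.43%, beside 3.47% of all). On chromosome 20 the last exon share was 58.5% of 147 ZNF exon class peaks (50.4% to 66.2%), and on the other chromosomes 34.8% of 253 (29.2% to 40.8%). Without chromosome 20 the share thus fell to 34.8%, against 16.8% of other peaks without that chromosome. Peaks of uncertain assignment gathered on chromosome 20. It held all 7 ZNF peaks named after an exon of another identifier (4.76% of its ZNF exon class peaks, against 0% elsewhere). It also held 12 of the 17 named after a transcript without an identifier (8.16% against 1.98%). ZNF peaks on chromosome 20 were also narrower, with 79.4% of at most 1000 bp against 57.9% elsewhere, and the median expression of its ZNF identifiers was 3.68 FPKM against 5.95 elsewhere. The part that width, KRAB content, expression or peak assignment has in the difference between chromosomes was not tested.

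**Figure D4:**
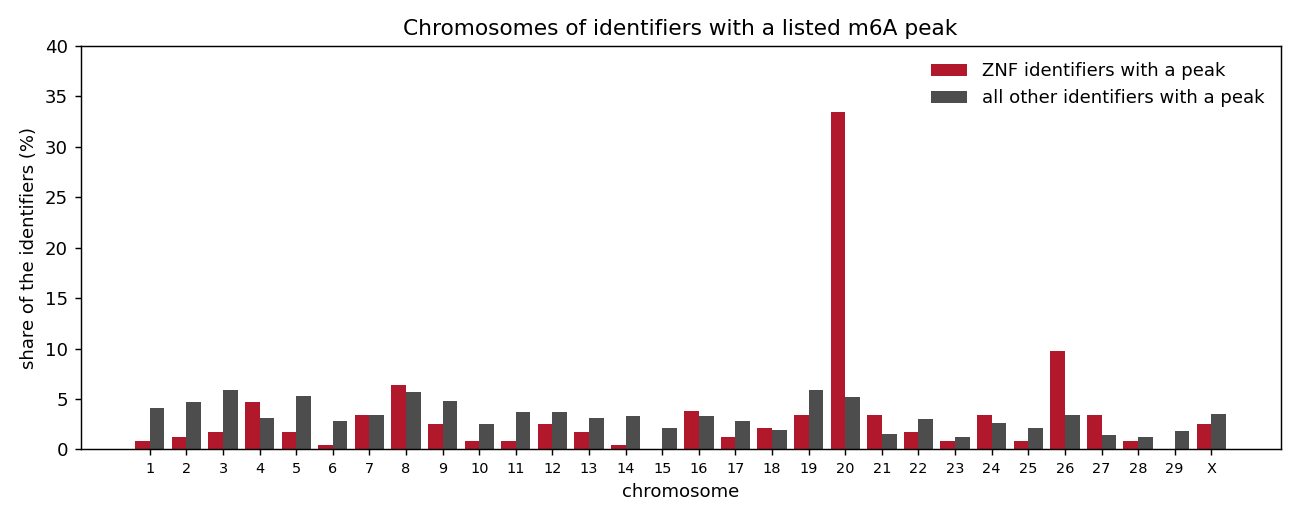
Bars give the percent of ZNF identifiers with a peak and of all other identifiers with a peak (y axis) on each numbered chromosome and X (x axis). Chromosome 20 held 33.5% of ZNF identifiers and 5.20% of the others, and chromosome 26 held 9.75% and 3.45%.

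The ZNF identifiers formed runs along the chromosomes. With gaps of at most 500 kb between neighbours, 158 of 236 lay in 36 runs of 2 or more, and 10 runs of 5 or more held 92. Some of the shorter runs held a single symbol, as with the 3 identifiers each of ZNF12, ZNF182 and ZNF699. Such runs cannot be told apart from split gene models. Runs were not counted for identifiers other than ZNF, so these counts have no background beside them. Chromosome 20 had both of the longest runs, with 16 identifiers each. The run from 52952301 to 53656129 held no identifier with a peak other than ZNF genes, and the last exon share of its exon class peaks was 66.7% (22 of 33), with mean FPKM values from 0.0265 to 16.0. These 22 included 4 peaks of ZNF583 on a transcript without an identifier. They also included 2 peaks of a ZNF470 identifier that were named after exons of another identifier. The run from 68823473 to 69655472 had the last exon named for 21 of 26 exon class peaks (80.8%) at a median of only 1.86 FPKM. In contrast, a run of 9 identifiers on chromosome 4 from 7518006 to 8119348 had 4 of 16 (25%) at a median of 4.52 FPKM, so clustered ZNF genes did not all share the pattern.

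Most ZNF genes with a peak were expressed at low to middle levels. The median over the 236 identifiers was 4.68 FPKM in TES5, 5.10 in TES6 and 4.76 in TES7, below the 7.30, 7.41 and 7.39 of the 8539 other identifiers with a peak and an FPKM value, in each animal. At least 1 FPKM in all 3 animals was reached by 206 of 236 (87.3%, 82.4% to 90.9%), about as many as among the others (86.9%, 86.2% to 87.6%). At least 10 FPKM in all 3 animals was reached by 43 (18.2%) against 35.9% of the others. The ZBTB, ZFP, ZSCAN and ZKSCAN identifiers were low too. Their median of the mean over animals was 4.15 FPKM, beside 4.89 for ZNF, and 14.9% of them reached 10 FPKM in all 3 animals. By mean level, 24 ZNF identifiers were under 1 FPKM, 96 between 1 and 5, 61 between 5 and 10, 44 between 10 and 20 and 11 above 20, with 2 listed peaks as the median in every one of these bins. An identifier of ZNF205 (ENSBGRG00000024096) was listed at 0 in all 3 libraries, and its only peak lay outside its listed transcript.

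The highest levels were those of ZNF385D, ZNF207, ZNF280C, ZNF622 and ZNF579. ZNF385D, of a family with double-stranded-RNA-type fingers, led with 41.6, 52.7 and 42.3 FPKM in TES5, TES6 and TES7, and had a single 75381 bp peak of the 5' UTR class. ZNF207 (BuGZ), which loads BUB3 on kinetochores, followed with 38.5, 37.4 and 43.4 FPKM. Its peaks were a 7111 bp peak of the 5' UTR class and one in exon 9 of 11. ZNF280C on the X chromosome had 29.7, 36.7 and 34.6 FPKM and 3 exon class peaks, none in the last of its 19 exons. ZNF622, an assembly factor of the large ribosomal subunit, had 31.7, 29.5 and 29.0 FPKM with 1 peak in exon 1 of 6, and ZNF579 had 25.3, 25.02 and 27.2 FPKM with 2 exon class peaks. Neighbours in this order overlapped between animals, apart from the steps from ZNF207 to ZNF280C and from ZNF622 to ZNF579.

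**Figure D5:**
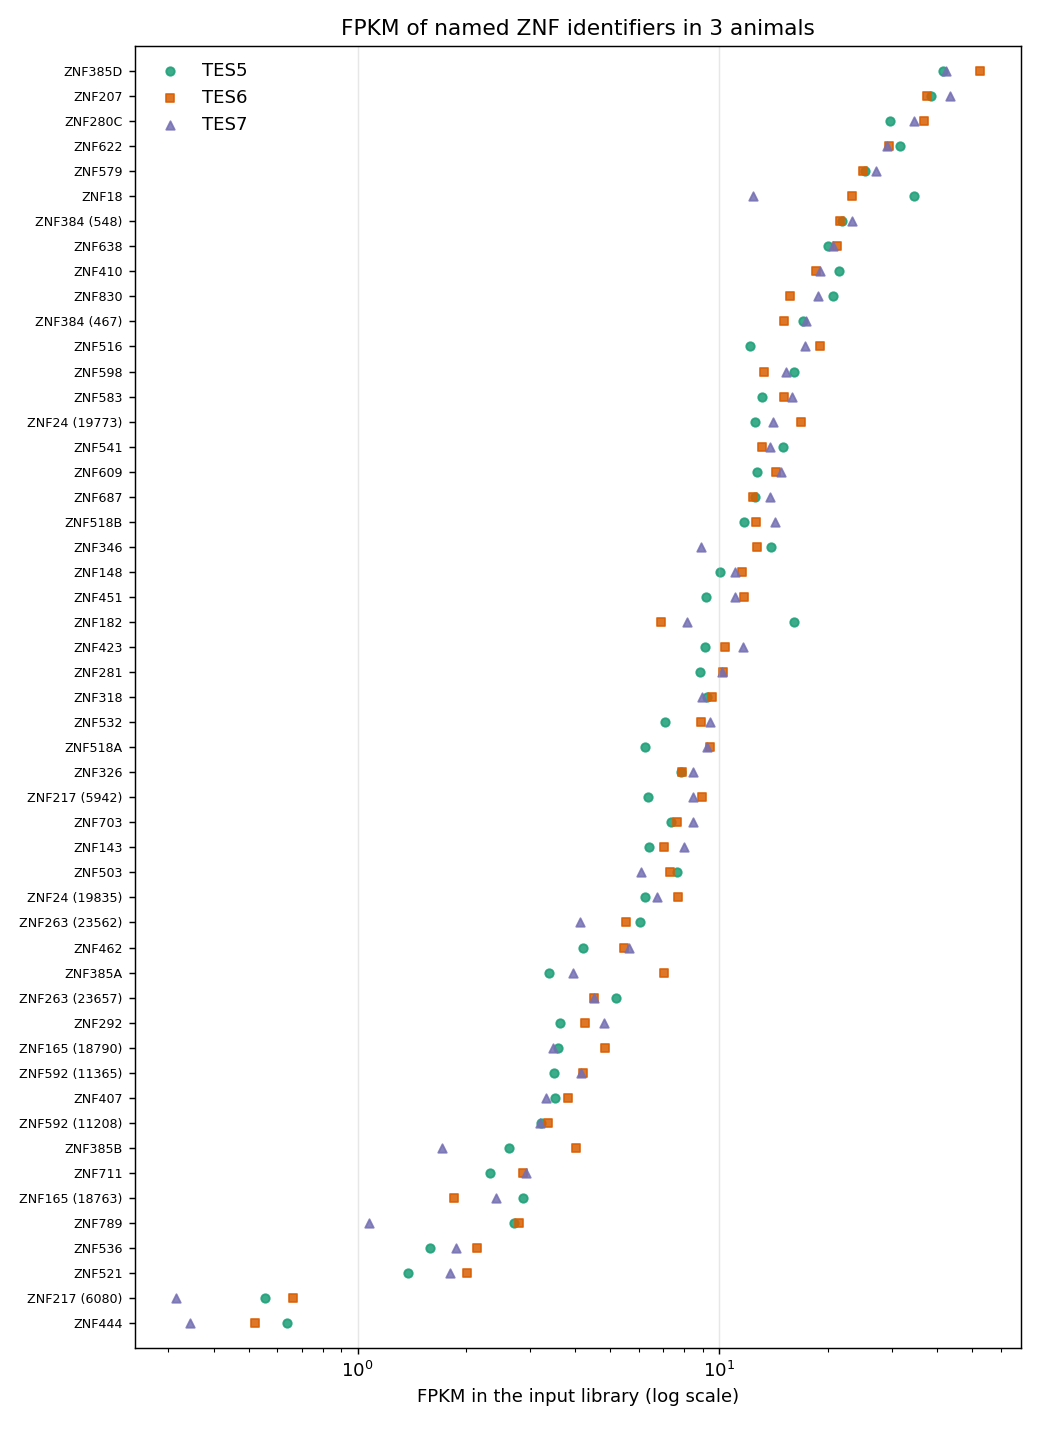
Points give the FPKM (x axis, log scale) of 51 ZNF identifiers (y axis, ordered by mean, with the end of the identifier in parentheses where a symbol is shown more than once) in the input RNA of the animals TES5, TES6 and TES7. Most identifiers had their 3 animals close together, while ZNF18 ran from 12.4 to 34.4 and ZNF182 from 6.88 to 16.1.

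Animals differed little for most ZNF genes. The coefficient of variation between the 3 animals had a median of 11.9% over the 212 ZNF identifiers with a mean of at least 1 FPKM, beside 11.95% over 7713 others. Over the remaining animals it was 7.74% without TES5, 10.9% without TES6 and 11.3% without TES7 for ZNF identifiers. These values rest on fewer animals and were not computed for the others. TES5 was the lowest animal for 106 of the 212 (50.0%), beside 41.5% of the others. On the log2(FPKM + 1) scale the median difference was 0.07 for TES6 minus TES5 (0.01 for the others), 0.07 for TES7 minus TES5 (0.03) and -0.01 for TES7 minus TES6 (0.01). Scaling the 3 libraries to 1 sum moved the first of these to 0.16 for ZNF identifiers and 0.10 for the others, so the size of the shift hung on the scaling. Unscaled, TES6 minus TES5 had quartiles of -0.13 and 0.27 for ZNF identifiers and -0.18 and 0.20 for the others. TES7 minus TES6 was narrower in both, with -0.13 and 0.12 for ZNF and -0.13 and 0.13 for the others. The summed level of the spermatocyte markers, of which 3 of 5 symbols could be matched, was highest in TES5, at 44.2 FPKM against 34.2 in TES6 and 32.7 in TES7. The sums were lowest in TES5 for spermatogonial markers (3 of 6 matched, 15.8 to 24.2 FPKM), Sertoli markers (2 of 5, 50.8 to 60.8 FPKM) and Leydig markers (1 of 5, 100.2 to 112 FPKM). The part of cell makeup in the ZNF values was not tested.

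The 5 largest coefficients of variation between animals ran from 41.1% to 48.3%. ZNF182 (ENSBGRG00000017067, chromosome X) had 16.1, 6.88 and 8.17 FPKM in TES5, TES6 and TES7, a coefficient of variation of 48.3%, with TES5 apart from the other animals. ZNF18 had 34.4, 23.2 and 12.4 FPKM (47.3%), with the 3 animals spread evenly. ZNF789 was lower in TES7 (1.07 FPKM) than in TES5 and TES6 (2.71 and 2.79). ZNF385B had 2.62, 4.02 and 1.71 FPKM. ZNF385A, a modulator of p53, had 3.39, 7.05 and 3.95 FPKM with TES6 highest.

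Genes of known role were taken from lists by function, 37 symbols in all, of which 34 had a peak, on 40 identifiers. At least 1 FPKM in all 3 animals was reached by 39 of the 40, beside 206 of 236 over the family, and the lists were drawn up with earlier results of these data known. They held 113 peaks, and 14 of their 89 exon class peaks lay in the last exon, beside 174 of 400 in the whole family. Among germ cell genes, ZNF541, which works with histone deacetylases in pachytene spermatocytes, had 15.0, 13.1 and 13.9 FPKM. Its 3 peaks were spread over the transcript, with a 4280 bp peak of the 5' UTR class, a 400 bp peak in exon 5 of 15 and an 816 bp peak of the 3' UTR class. ZNF318, a cofactor of the androgen receptor first found in testis, had 9.26, 9.54 and 8.97 FPKM, a coefficient of variation of 3.10%, and 5 exon class peaks from exon 3 to the last of its 14 exons. ZNF165, a cancer-testis antigen, was on 2 identifiers with means of 2.37 ± 0.509 and 3.96 ± 0.755 FPKM (SD, n = 3) and 1 and 2 peaks.

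The RNA and ribosome group was the highest of the lists, with 7 of 9 symbols listed and a median over them of 18.4 FPKM (means from 8.07 to 39.8). ZNF638, which recruits the HUSH silencing complex to unintegrated retroviral DNA, had 19.9, 21.1 and 20.7 FPKM and 4 peaks, the narrowest of which was an 895 bp peak in exon 2 of 28. ZNF598, the ubiquitin ligase of collided ribosomes, had 16.1, 13.3 and 15.3 FPKM and 3 peaks in exons 7, 11 and 14 of 15. ZNF346, a double-stranded RNA binder, had 13.9, 12.7 and 8.91 FPKM and 1 peak of the 5' UTR and 2 of the 3' UTR class. ZNF830 had 20.7, 15.7 and 18.8 FPKM, and its transcript has 1 exon, so its only peak counts as last exon by construction. ZNF326, of the DBIRD complex that links elongation and splicing, had the lowest mean of the group (8.07 FPKM ± 0.320, SD, n = 3).

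Of the chromatin and SUMO group, 10 of 11 symbols were listed on 12 identifiers, with 37 peaks and a median of 8.38 FPKM. ZNF410, the activator of CHD4, had 21.4, 18.5 and 19.0 FPKM and a single 4914 bp peak of the 3' UTR class. ZNF711, an X-linked partner of PHF8, had 2.33, 2.87 and 2.91 FPKM and 5 peaks, with 2 in the last of 10 exons. The ZMYND8 partners ZNF687, ZNF592 and ZNF532 differed in level, at 12.9 ± 0.783 FPKM for ZNF687, 3.26 ± 0.0997 and 3.95 ± 0.397 for the identifiers of ZNF592, and 8.47 ± 1.25 for ZNF532 (SD, n = 3). The 5 exon class peaks of ZNF532 included 3 in exon 3 of 10, within 1899 bp. ZNF217, a member of LSD1 and CoREST complexes, had 7.91 ± 1.38 FPKM on 1 identifier and 0.511 ± 0.179 on another.

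All 8 genes of the development list were listed, and none of their 24 exon class peaks was in a last exon. ZNF516 had the highest mean (16.1 FPKM ± 3.51, SD, n = 3) and ZNF521, a partner of EBF factors, the lowest (1.73 ± 0.321). ZNF423, a related EBF partner, had 4 exon class peaks at 9.13, 10.4 and 11.6 FPKM. ZNF536 had 5 narrow peaks in exons 3 and 6 of 7 at only 1.58, 2.14 and 1.88 FPKM. ZNF703 had 4 peaks at 7.36, 7.62 and 8.43 FPKM. The 6 promoter and housekeeping symbols were on 9 identifiers, all at 1 FPKM or more in every animal, and 6 of their 15 exon class peaks were in the last exon. ZNF143, an activator at many promoters, had 6.41, 7.05 and 7.99 FPKM and 2 exon class peaks. ZNF148, a binder of GC-rich promoters, had 10.04, 11.5 and 11.1 FPKM and 1 of its 2 exon class peaks in the last exon.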

How the data were processed

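Testis of 3 cattle-yaks was measured by MeRIP-seq, IP and input. The authors trimmed reads with Trimmomatic, removed ribosomal RNA with SortMeRNA, aligned to LU_Bosgru_v3.0 (Ensembl) with HISAT2 2.0.4 (submitters' processing notes and methods), kept unique reads, called peaks of IP over input with MeTDiff and annotated them with ChIPseeker. The deposited peak list gives position, width, class, gene and transcript, with no strand for peaks. For the input libraries the authors deposited FPKM of 20953 identifiers, and the program is not given in the sources used here. Since FPKM hold no read counts, detection limits could not be given and no count model was fitted. The sequencing depth stated by the study was not analysed here.

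Peaks were counted by class, exon and width. Shares were given with 95% Wilson intervals, and FPKM with the SD over animals, using log2(FPKM + 1) for differences. With 1 condition, no test was made. Symbols were paired with identifiers by the peak list. Genes were named by rule: the top 5 by peak number, by mean FPKM, and by coefficient of variation at a mean of at least 1 FPKM, the widest and narrowest peak, the 3 symbols on the most identifiers (ties by peak number), and lists by role. The members and lists were chosen with earlier results of these data known. Names were matched to RefSeq symbols (Bosgru_T2T1.0), with no coordinates taken from it. No genome of the build was used here, so sequences and motifs were not analysed. The scripts ran in Python 3.11.15 with SciPy 1.17.1, pandas 2.3.3, numpy 2.4.6 and matplotlib 3.10.9, and were tested on simulated data. Alternatives were merged peaks, narrow peaks, minimum levels, members by annotation, symbols, ZNF773 included, width weighting, each animal left out, rescaling and a pseudocount of 0.1. The deposited FPKM were not rescaled in the main values.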

Additional observations from a re-analysis of the deposited data

How the results depend on the processing

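Of the 75 values recomputed, 62 stayed close to the reported value and 13 moved, judged by the 95% interval for shares, by the SD between animals for the median FPKM, by the spread over identifiers for log2 differences, and by 1.5 times for counts and the coefficient of variation. The spread over identifiers is a wide limit for a median. Rescaling moved TES6 minus TES5 from 0.07 to 0.16 and TES7 minus TES5 from 0.07 to 0.14, and both count as close by this rule. The single-peak share of ZNF identifiers was 44.1% with peaks merged within 100 bp and 25% counted by symbol (57.4% and 48.3% for others). In peaks of at most 1000 bp, the 5' UTR share was 4.91% and the last exon share 59.0%. The latter was 35.8% in transcripts of at least 3 exons and 50.7% with both limits. Weighted by width, the exon class share was 66.4% (others 68.8%) and the 5' UTR share 21.0% (others 19.1%). The 3' UTR share by width was 12.6% (others 12.04%). The higher exon class and lower 3' UTR class shares of ZNF peaks thus held for numbers of peaks and not for their summed width. Without chromosome 20 (chosen, like the combined limit, after seeing the data), 323 peaks stayed, with a last exon share of 34.8%, 57.9% of at most 1000 bp, and a median of 5.95 FPKM. Leaving out each animal gave, for ZNF identifiers over the remaining animals, a median coefficient of variation from 7.74% to 11.3%, a median of 4.85 to 4.91 FPKM, and 206 to 211 identifiers with at least 1 FPKM. The cause of these shifts was not tested, beyond the fewer peaks or animals that an alternative left. No paired analysis was possible because values per animal are not part of the peak list and FPKM values exist for input libraries only, so no IP value shares a number with an input value.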
